A study of Mus musculus with 8 samples.

Results

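The TRP, ASIC, P2X and HCN channels are cation channels best known from sensory cells. They were taken as every gene symbol of these families in the deposited count tables (the TRPA, TRPC, TRPM and TRPV subfamilies of TRP, and the ASIC, P2X and HCN families). The rule found 38 genes of 24538, namely 22 TRP, 5 ASIC, 7 P2X and 4 HCN genes. Their RNA was measured in Merkel cells, the touch receptor cells of the epidermis, and in cells that the labels call IFE, sorted from the same newborn skin. There were 2 cell types and 2 skin sites, paw and back, and each of the 4 combinations had 2 libraries. Every cell came from an Atoh1-GFP mouse at postnatal day 0, so the Merkel and the IFE groups share that genotype. Both sorts took EpCAM-positive cells. The Merkel gate required GFP and excluded Sca1, the IFE gate required Sca1 and excluded GFP, and neither used any of the 38 channels. Separate mice are not named in the labels for the replicate libraries, so every p-value here measures only the spread between these libraries, which may be technical.

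TRP channels open to heat, cold, irritants, osmotic swelling or signals downstream of receptors, and several of them serve calcium and magnesium transport instead of sensation. ASICs are sodium channels opened by protons, P2X receptors are channels opened by extracellular ATP, and HCN channels carry a pacemaker current that switches on when a cell hyperpolarizes. In skin, the TRPV channels Trpv3 and Trpv4 are known from keratinocytes, whereas Asic3, P2rx3, Trpv1, Trpm8 and Trpa1 are known from sensory neurons. Merkel cells are excitable and sense touch through Piezo2, which belongs to another family.

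Total counts per library lay between 11139306 and 26195076. The 9 Merkel cell markers summed to 3539 to 5764 CPM (a count scaled to a common library size, here by TMM) in Merkel libraries, against 9.88 to 19.0 CPM in IFE libraries. The 8 keratinocyte markers summed to 1946 to 8120 CPM in Merkel libraries, highest in paw Merkel library 1, and to 30726 to 46332 CPM in IFE libraries. Library 2 of back IFE stood apart: over 28 Hox genes, which mark body position, its log2 CPM correlated at 0.82 and 0.92 with both paw IFE libraries and at -0.04 with back IFE library 1, a correlation across genes that describes these libraries. Back IFE library 1 had the highest sum of 13 immune markers, 1251 CPM, against 206 CPM in back IFE library 2 and 2.12 to 79.0 CPM elsewhere. In bulk RNA of this kind, fewer cells of a type and less RNA per cell cannot be told apart.

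Among the channels, P2rx6 was called higher in Merkel cells at both sites, Asic1 was called higher in back Merkel cells, and Trpv4 was called lower in Merkel cells over both sites. The start regions of these 3 genes are printed so that the sequence in front of each can be set beside its levels. Each line gives 250 bases before to 50 bases after the RefSeq start in GRCm38.p6, 5′ to 3′ on the gene's strand. Capitals mark the E-box CAGCTG, one form of the motif bound by basic helix-loop-helix factors, the class to which Atoh1 belongs.
P2rx6 (chr16:17561635-17561934, plus strand): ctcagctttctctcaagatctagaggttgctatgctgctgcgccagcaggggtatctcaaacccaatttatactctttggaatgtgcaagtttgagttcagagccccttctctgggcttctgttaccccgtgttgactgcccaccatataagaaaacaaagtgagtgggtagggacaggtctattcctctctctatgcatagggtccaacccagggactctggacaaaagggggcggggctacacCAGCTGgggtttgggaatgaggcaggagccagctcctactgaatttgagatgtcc
Asic1 (chr15:99691974-99692273, plus strand): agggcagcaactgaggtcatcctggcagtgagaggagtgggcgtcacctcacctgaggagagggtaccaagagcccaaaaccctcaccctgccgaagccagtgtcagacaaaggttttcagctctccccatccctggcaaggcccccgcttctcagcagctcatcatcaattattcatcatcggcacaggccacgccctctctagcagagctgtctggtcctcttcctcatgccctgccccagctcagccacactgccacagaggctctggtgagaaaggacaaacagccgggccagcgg
Trpv4 (chr5:114658372-114658671, minus strand): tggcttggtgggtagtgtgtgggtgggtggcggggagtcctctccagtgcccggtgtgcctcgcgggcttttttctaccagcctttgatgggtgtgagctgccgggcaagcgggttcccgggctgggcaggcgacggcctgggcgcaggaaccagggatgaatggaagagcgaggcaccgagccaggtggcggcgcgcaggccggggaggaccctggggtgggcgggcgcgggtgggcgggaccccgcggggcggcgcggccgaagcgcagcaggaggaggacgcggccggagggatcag
CAGCTG occurred 1 time in the P2rx6 window and not in the windows of Asic1 and Trpv4. The E-box CAGATG, searched on both strands, was in none of the 3 windows. Of the 35 RefSeq windows available for 29 of the 38 channels, 8 held CAGCTG, which reads the same on both strands, and 4 held CAGATG. Among 32851 windows of this length, 16.3% held CAGCTG and 17.2% held CAGATG. The Trpv4 window was rich in G and C, at 73.0%, against 59.7% for Asic1, 51.3% for P2rx6 and a median of 52.7% over all windows. The RefSeq start of Asic1 lies inside the gene as GENCODE draws it (chr15:99670368-99701130), so the window is not at the outermost start. A motif match is a description of the letters only.

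A channel was taken as detected in a group when both libraries reached 1 CPM. By that measure 22 of the 38 channels were detected in at least 1 group. The number was 12 in paw Merkel cells against 12 in paw IFE cells, and 16 in back Merkel cells against 11 in back IFE cells. The 6 detected in all 4 groups were Asic1, P2rx4, Trpm4, Trpm7, Trpv3 and Trpv6. Detection in both Merkel groups but neither IFE group held for Asic2, P2rx6 and Trpc1. Asic3, Asic4, Hcn2 and Hcn4 were detected in back Merkel cells alone by this measure, and Trpc4 in paw Merkel cells alone. P2rx2 and P2rx3 were detected in paw IFE cells and in no other group, and P2rx5 and Trpv2 in back IFE cells and in no other group. These lists follow from a fixed cut-off and are not tests of a difference.

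The remaining 16 channels were detected in no group, and 3 of them, Asic5, Trpc2 and Trpc6, had 0 counts in all 8 libraries. A count of 0 allows a level of up to 0.114 to 0.293 CPM, depending on the library (3 counts, counting error only). That limit does not apply to Trpc2, whose exonic bases are all shared with Xndc1 and Xntrpc on the same strand. Its deposited FPKM was 0.579 to 3.32, so its level is uncertain. A further 6 channels had 1 to 9 counts over all libraries together. Trpm8, the menthol and cold receptor, had 1 count in all, as did the calcium channel Trpv5, the heat-activated Trpm3, Trpc7 and P2rx1. Trpa1, the irritant receptor, had 4 counts, all in back IFE library 1. The last 7 had 10 or more counts but did not reach 1 CPM in both libraries of any group, and the reads of those named here lay mostly in single libraries, except for Trpc5. Trpv1, the capsaicin and heat receptor, reached 3.35 CPM in back Merkel library 1 and at most 0.184 CPM in any other library. Trpm5, the taste cell channel, reached 2.96 CPM in paw IFE library 2 and Trpm6, a magnesium channel, 2.77 CPM in paw IFE library 1. In these libraries the deposited FPKM was 0.0636 for Trpv1, 0.0156 for Trpm5 and 0.428 for Trpm6. Trpc5 ranged from 0 to 2.97 CPM with no group above another, and P2rx7 is described with the P2X receptors. None of the single-library levels given here is supported by its replicate.

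**Figure D1:**
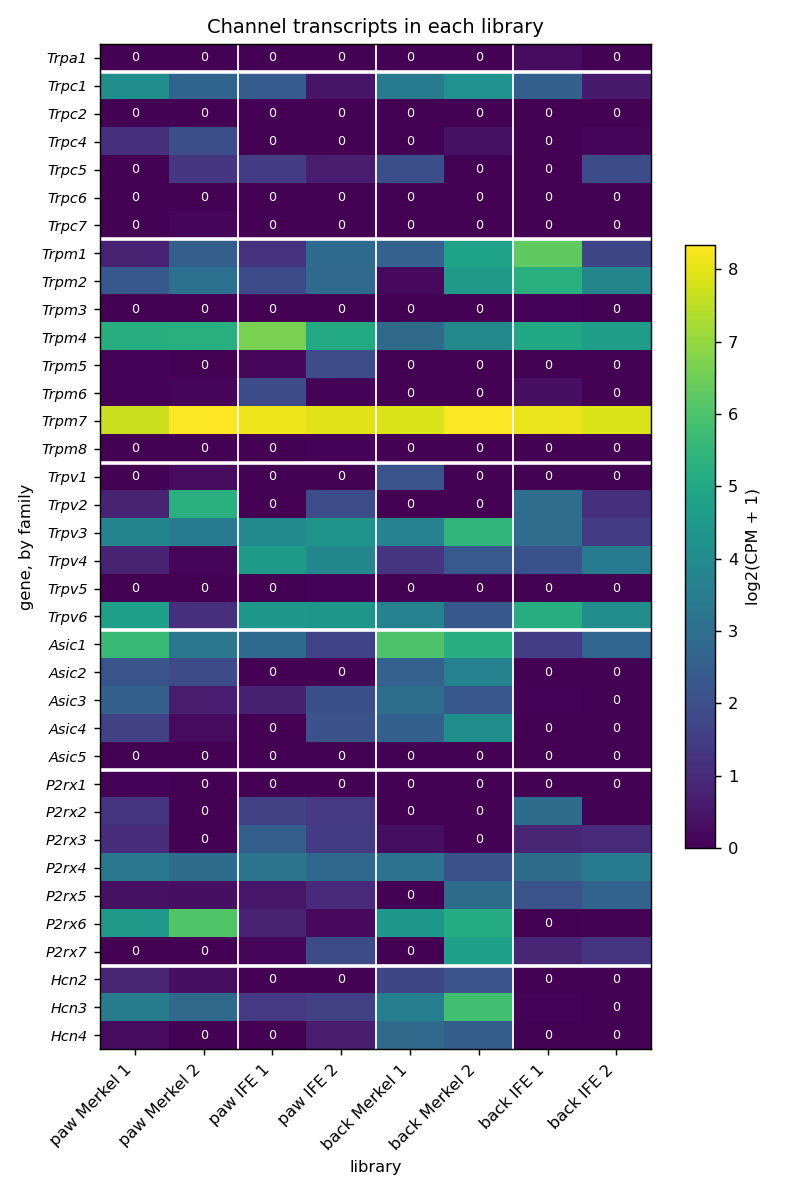
Level of the channels reported here in each of the 8 libraries, as log2(CPM + 1) in colour, with genes grouped by family from top to bottom and a 0 printed where a library had no counts. Trpm7 is bright in every library, Asic2 and P2rx6 are bright or visible in Merkel libraries and at or near 0 in IFE libraries, and Asic5, Trpc2 and Trpc6 are at 0 throughout.

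Levels of different genes can be compared on the deposited FPKM, which is scaled to transcript length. Summed over the 22 TRP genes, FPKM was 52.5 in paw Merkel cells against 57.2 in paw IFE cells, and 50.1 in back Merkel cells against 55.7 in back IFE cells. The ASIC sum was 9.12 ± 6.14 FPKM in paw Merkel cells against 0.669 ± 0.404 in paw IFE cells, and 21.0 ± 2.17 in back Merkel cells against 0.194 ± 0.0222 in back IFE cells (mean ± SD, n = 2 libraries, as for every ± given here). HCN genes summed to 3.93 ± 0.943 FPKM in paw Merkel cells against 0.774 ± 0.0826 in paw IFE cells, and to 12.1 ± 5.88 in back Merkel cells against 0.00662 ± 0.00441 in back IFE cells. P2X genes summed to 33.1 ± 26.8 FPKM in paw Merkel cells against 4.58 ± 1.93 in paw IFE cells, and to 22.7 ± 8.50 in back Merkel cells against 9.02 ± 1.95 in back IFE cells. For these 3 families, the lowest Merkel library lay above the highest IFE library. A single gene carried each of the larger sums. P2rx6 made up 67.1% to 91.8% of the P2X sum in Merkel libraries and at most 4.02% in IFE libraries, and Trpm7 made up 48.7% to 89.2% of the TRPM sum in every library. The highest channels by mean FPKM were P2rx6 (29.6) and Trpm7 (29.0) in paw Merkel cells, Trpm7 (27.9) in paw IFE cells, Trpm7 (32.0) and P2rx6 (16.5) in back Merkel cells, and Trpm7 (23.4) in back IFE cells.

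**Figure D2:**
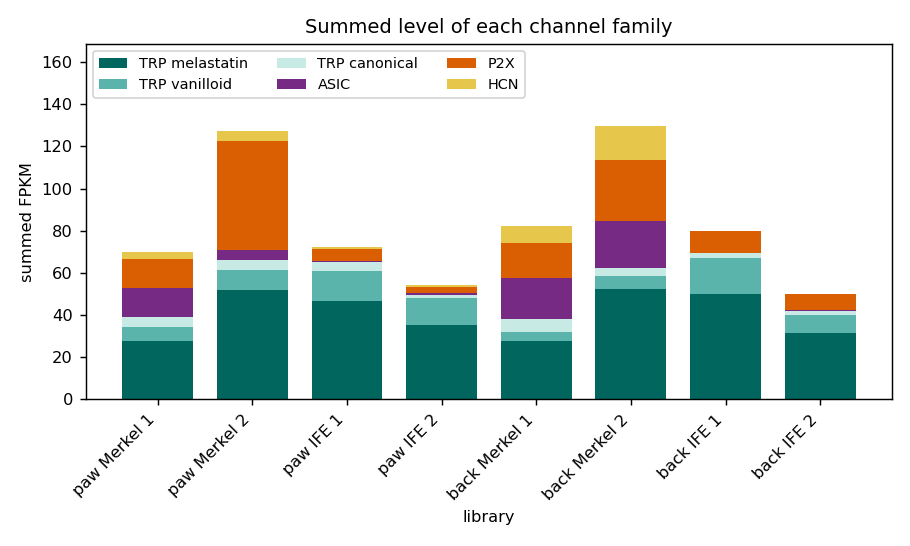
Summed FPKM of each channel family, stacked, for each of the 8 libraries. The TRPM part (dark green) is of like height in all groups, whereas the ASIC, P2X and HCN parts (purple, orange and yellow) are larger in the 4 Merkel libraries than in the 4 IFE libraries.

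Differences in single channels were tested in 1 model of the counts over all 8 libraries, and 24 of the 38 channels had enough counts to enter it. A gene is called when its edgeR quasi-likelihood p-value, adjusted over 15151 genes by the Benjamini-Hochberg method, is under 0.05. In paw skin 1 of the 24 tested channels was called higher in Merkel cells and 0 lower, or 4.2% and 0.0%, against 4.28% of all genes called higher and 1.93% called lower (6.21% in all). The share called higher is that of genes in general. In back skin 4 of 24 were called higher and 0 lower, or 16.7% and 0.0%, against 7.99% and 7.45% of all genes (15.4% in all). Averaged over both sites, 5 of 24 were called higher in Merkel cells and 1 lower, or 20.8% and 4.2%, against 12.5% and 11.3% of all genes (23.9% in all). The 5 called higher were Asic1, Asic2, Hcn2, Hcn3 and P2rx6, and the 1 called lower was Trpv4. No TRP channel was called higher in Merkel cells in any of these comparisons. Leaving out 1 library at a time changed the calls of single channels, as given with each channel. Those fits leave 1 library in a group, so their counts of calls are not compared here.

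**Figure D3:**
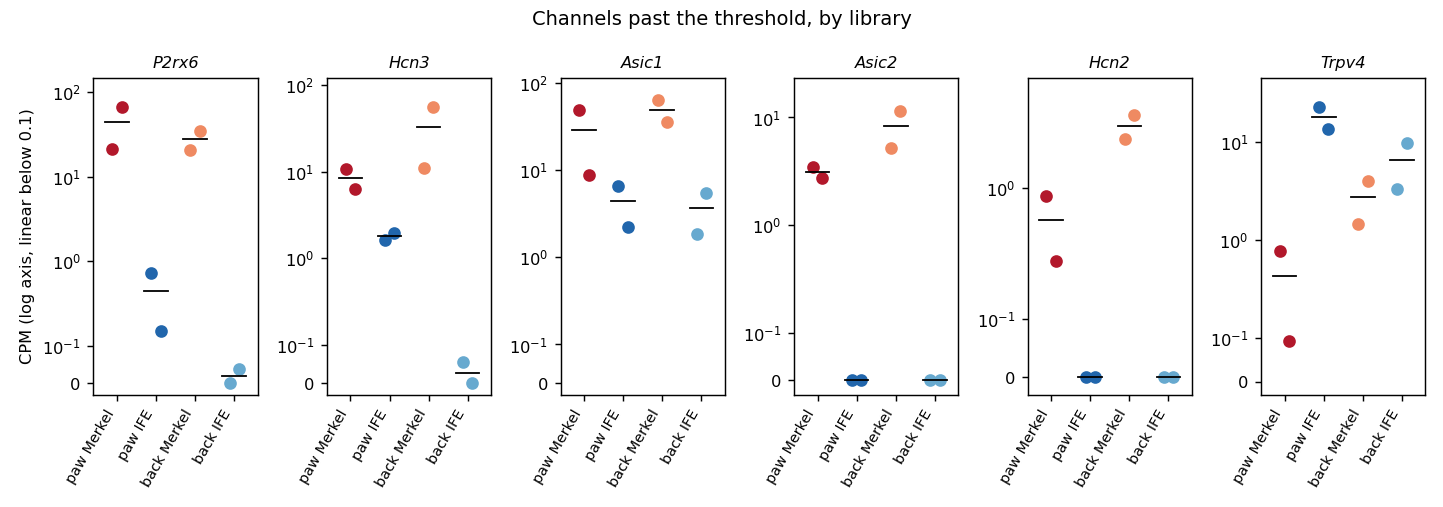
CPM of the 6 channels called in at least 1 comparison of Merkel with IFE cells, by group (log axis, linear below 0.1). Each point is a library and each black line the mean of 2 libraries. P2rx6, Hcn3, Asic1, Asic2 and Hcn2 lie higher in the Merkel groups, and Trpv4 lies highest in paw IFE cells and lowest in paw Merkel cells.

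P2rx6 encodes a P2X subunit that forms few working channels on its own and is known to assemble with other P2X subunits. It had 21.2 and 66.3 CPM in paw Merkel libraries, against 0.733 and 0.148 CPM in paw IFE libraries. The back values were 20.7 and 34.7 CPM in Merkel libraries, against 0 and 0.0382 CPM in IFE libraries. All 4 Merkel libraries lay far above all 4 IFE libraries. The log2 fold change in paw skin was 6.59 (SE 1.15, adjusted p = 0.00561). In back skin 627 counts in Merkel libraries stood against 1 count in IFE libraries, a ratio of 1197 with a 95% exact interval of 214 to 47343 that covers counting error only (adjusted p = 0.00092). P2rx6 was called in both sites and over both sites without any 1 of the 8 libraries. Of its exonic bases, 13.9% overlap Slc7a4 on the opposite strand, and no strand setting is stated for the counts, so reads there cannot be assigned. Slc7a4 itself had 4.41 to 15.2 CPM in Merkel libraries and 0.0543 to 1.02 CPM in IFE libraries, below P2rx6 in every Merkel library.

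Of the other P2X receptors, none was called in any comparison of Merkel with IFE cells. P2rx4, a widely expressed ATP receptor, had 9.15 and 6.73 CPM in paw Merkel libraries against 8.31 and 5.92 CPM in paw IFE libraries, and 8.06 and 3.22 CPM in back Merkel libraries against 6.73 and 10.1 CPM in back IFE libraries. These ranges overlapped, and the averaged log2 fold change was -0.21 (SE 0.72, adjusted p = 0.868). P2rx3, the receptor of pain-sensing neurons, had 1.10 and 0 CPM in paw Merkel libraries against 4.73 and 1.78 CPM in paw IFE libraries, and 0.228 and 0 CPM in back Merkel libraries against 0.868 and 1.03 CPM in back IFE libraries. P2rx2, which pairs with it in sensory neurons, had 1.44 and 0 CPM in paw Merkel libraries against 2.04 and 1.63 CPM in paw IFE libraries, and 0 CPM in both back Merkel libraries against 6.78 and 0.0382 CPM in back IFE libraries. Within each site, P2rx2 and P2rx3 were thus no higher in Merkel libraries than in IFE libraries. P2rx5 had 0.288 and 0.277 CPM in paw Merkel libraries against 0.407 and 1.04 CPM in paw IFE libraries, which did not overlap. It had 0 and 6.74 CPM in back Merkel libraries against 3.42 and 5.27 CPM in back IFE libraries, which overlapped. On the deposited FPKM scale the back groups did not overlap, with 0 and 0.277 FPKM in Merkel libraries against 1.86 and 2.74 FPKM in IFE libraries. P2rx7, an ATP receptor best known from immune cells, had 24.9 CPM in back Merkel library 2 and 0 CPM in the other 3 Merkel libraries, against 0.0815 to 2.71 CPM in IFE libraries.

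Asic1 encodes the main proton-gated subunit of neurons. It had 49.2 and 8.85 CPM in paw Merkel libraries, against 6.56 and 2.22 CPM in paw IFE libraries. Back Merkel libraries had 63.6 and 35.7 CPM, against 1.85 and 5.53 CPM in back IFE libraries. Every Merkel library lay above every IFE library, though paw Merkel library 2 was close to paw IFE library 1. The difference was called in back skin, with a log2 fold change of 3.74 (SE 1.02, adjusted p = 0.0301), and over both sites, at 3.23 (SE 0.71, adjusted p = 0.00685). In paw skin the fold change was 2.72 (SE 0.98, adjusted p = 0.136), which passed without paw Merkel library 2 (0.042) and was 1.00 on the log2 scale without paw Merkel library 1 (adjusted p = 0.515). The call over both sites held without any 1 library, but the call in back skin was lost without back Merkel library 1 (adjusted p = 0.106) or without back IFE library 1 (adjusted p = 0.127). On the FPKM scale Asic1 averaged 7.08 in paw Merkel cells against 0.536 in paw IFE cells, and 11.7 in back Merkel cells against 0.168 in back IFE cells. Single IFE libraries had 0.127 to 0.862 FPKM, although each was above 1 CPM. Counts and FPKM of Asic1 thus differ in how low they place IFE cells.

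Asic2, which combines with other ASIC subunits and alters their gating, had counts in Merkel libraries and none in IFE libraries. It had 3.5 and 2.77 CPM in paw Merkel libraries, against 0 CPM in both paw IFE libraries. Back Merkel libraries had 5.17 and 11.5 CPM, against 0 CPM in both back IFE libraries. The groups did not overlap at either site, and all Merkel libraries were low in absolute terms. Against a floor of 3 counts over the IFE group, Asic2 was at least 46.8-fold higher in paw Merkel cells (adjusted p = 0.0587), at least 124-fold higher in back Merkel cells (adjusted p = 0.0215) and at least 171-fold higher over both sites (adjusted p = 0.00342). The call over both sites held without any 1 library. In back skin it was lost without back Merkel library 2 (adjusted p = 0.0989), back IFE library 1 (0.0868) or back IFE library 2 (0.0947), and in paw skin a call was gained without paw Merkel library 1 (0.0418), back IFE library 1 (0.0374) or back IFE library 2 (0.0421).

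Asic3 and Asic4 had their highest levels in back Merkel libraries and did not pass by edgeR. Asic3, the acid sensor of muscle and skin afferents, had 7.07 and 3.81 CPM in back Merkel libraries, against 0.0543 and 0 CPM in back IFE libraries. Its 132 counts against 1 count give a ratio of 252 (95% exact interval 44.4 to 10026, counting error only), with an adjusted p of 0.0551, and it passed without either paw Merkel library (0.0386 and 0.0241). In paw skin it had 4.84 and 0.553 CPM in Merkel libraries, against 0.652 and 3.06 CPM in IFE libraries, which overlapped. On the deposited FPKM scale these groups did not overlap, with 0.496 and 0.332 FPKM in paw Merkel libraries against 0.175 and 0.093 FPKM in paw IFE libraries, so counts and FPKM of Asic3 differ in paw IFE library 2. Asic4, whose product does not form a proton-gated channel alone, had 4.87 and 16.8 CPM in back Merkel libraries, against 0 CPM in both back IFE libraries. That is at least 161-fold higher, with an adjusted p of 0.0531, and the call was gained without any 1 of the 4 paw libraries (0.0147 to 0.0308). In paw skin Asic4 had 2.06 and 0.184 CPM in Merkel libraries, against 0 and 3.21 CPM in IFE libraries. The 65 counts behind the last value have a deposited FPKM of 0, so the authors' count and FPKM of Asic4 go apart in that library. Asic4 shares 18.1% of its exonic bases with Gm37264 on the opposite strand. Asic3 over both sites was called without paw Merkel library 2 (adjusted p = 0.0335, against 0.0636 with all libraries), and Asic4 without that library (0.0453) or without paw IFE library 2 (0.0206, against 0.0733).

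Among the HCN channels, Hcn3 was called higher in Merkel cells. Its product is a slowly opening pacemaker subunit. It had 10.6 and 6.36 CPM in paw Merkel libraries, against 1.63 and 1.97 CPM in paw IFE libraries. Back Merkel libraries had 11.2 and 55.4 CPM, against 0.0543 and 0 CPM in back IFE libraries. Merkel libraries lay above IFE libraries at both sites, and back Merkel library 2 was the highest. The paw log2 fold change was 2.24 (SE 1.08, adjusted p = 0.265), which did not pass. Back Merkel libraries had 714 counts against 1 count in back IFE libraries, a ratio of 1363 (95% exact interval 244 to 53902, counting error only; adjusted p = 0.00181). The averaged log2 fold change was 6.16 (SE 0.96, adjusted p = 0.00092), and the calls in back skin and over both sites held without any 1 library. Hcn3 shares 17.1% of its exonic bases with Pklr on the opposite strand, and Pklr had 0 to 1.37 CPM in all libraries.

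Hcn2 and Hcn4 were low, and nearly all of their reads lay in Merkel libraries. Hcn2 had 0.863 and 0.277 CPM in paw Merkel libraries, against 0 CPM in both paw IFE libraries. In back skin it had 2.36 and 3.61 CPM in Merkel libraries, against 0 CPM in both IFE libraries. It was at least 53.0-fold higher over both sites (adjusted p = 0.0245), while the single-site values did not pass (at least 8.51-fold with adjusted p = 0.220 in paw skin, and at least 44.4-fold with adjusted p = 0.0801 in back skin). This call rests on few reads: it was lost without either paw IFE library (adjusted p = 0.130 and 0.124), either back Merkel library (0.0665 and 0.0958) or either back IFE library (0.0987 and 0.105). Hcn4, the pacemaker subunit of the heart, had 6.31 and 4.49 CPM in back Merkel libraries, against 0 CPM in both back IFE libraries (at least 80.4-fold, adjusted p = 0.0744). Without paw Merkel library 2 it was called in back skin (adjusted p = 0.0473). In paw skin Hcn4 had 0.192 and 0 CPM in Merkel libraries, against 0 and 0.592 CPM in IFE libraries.

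Markers of sensory neurons were also higher in Merkel libraries, and they move with the ASIC, HCN and P2rx6 results. The 10 markers summed to 423 and 868 CPM in paw Merkel libraries against 4.2 and 9.67 CPM in paw IFE libraries, and to 988 and 994 CPM in back Merkel libraries against 2.33 and 4.2 CPM in back IFE libraries. Most of that sum was Snap25 and Avil, and 4 of 10 markers in paw Merkel and 3 of 10 in back Merkel cells reached 1 CPM in both libraries. Prph and Mrgprd, which mark sensory axons and a class of skin nociceptors, were at 0 in all 4 Merkel libraries. Scn10a, the sodium channel of nociceptors, was at 0 in both back Merkel libraries and at 0 and 0.277 CPM in paw Merkel libraries. Of the same list, Scn11a, another nociceptor sodium channel, had 2.78 and 5.62 CPM in paw Merkel libraries and at most 0.0987 CPM elsewhere. Tac1, a neuropeptide precursor, had 0.623 and 6.45 CPM in paw Merkel libraries and 0 in all other libraries. Tubb3, a neuronal tubulin, had 70.4 and 7.74 CPM in paw Merkel libraries against 0 and 0.296 CPM in paw IFE libraries, and 26.9 and 10.6 CPM in back Merkel libraries against 0 CPM in both back IFE libraries. Beyond these levels, the part of neurons in the channel values was not tested.

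**Figure D4:**
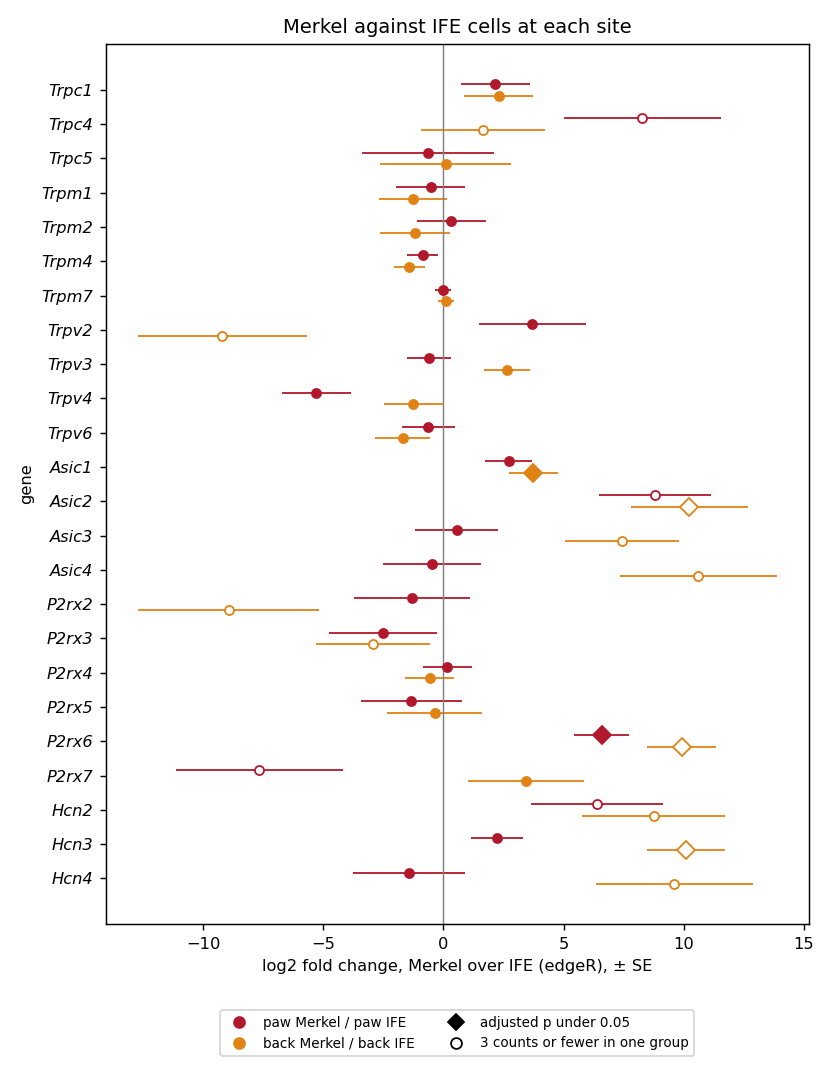
Log2 fold change of the 24 tested channels in Merkel over IFE cells, for paw skin (red) and back skin (orange). Bars are the SE derived from the F test. Diamonds are calls (adjusted p under 0.05), and open symbols mark a group with 3 counts or fewer, where the fitted value depends on the prior count. P2rx6 lies right of 0 at both sites, Trpm7 lies on 0 with the shortest bars, and Trpv4 lies left of 0 at both sites.

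Trpv4, an osmotic and warmth-sensitive channel of keratinocytes, was the only channel called lower in Merkel cells over both sites. It had 0.767 and 0.0922 CPM in paw Merkel libraries, against 22.2 and 13.4 CPM in paw IFE libraries. In back skin it had 1.45 and 4.01 CPM in Merkel libraries, against 3.26 and 9.73 CPM in IFE libraries. The paw groups were far apart, whereas the back groups overlapped. The averaged log2 fold change was -3.27 (SE 0.93, adjusted p = 0.026), with -5.29 in paw skin (SE 1.45, adjusted p = 0.0552) and -1.26 in back skin (SE 1.22, adjusted p = 0.526). The Trpv4 call did not hold without paw IFE library 1 (adjusted p = 0.117), paw IFE library 2 (0.0568), back Merkel library 1 (0.0757) or back IFE library 2 (0.0784). In paw skin the call was gained without paw Merkel library 1 (0.0238), either back Merkel library (0.0477 and 0.0481) or back IFE library 1 (0.0361). Keratinocyte markers, lower in Merkel cells as given above, move with Trpv4 between the cell types. Among Merkel libraries the order differed: paw Merkel libraries 1 and 2 had keratinocyte sums of 8120 and 1946 CPM, and back Merkel libraries 1 and 2 had lower sums than paw Merkel library 1, 2833 and 2304 CPM, with higher Trpv4. The part of keratinocytes in the Trpv4 result was not tested.

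Trpv3 and Trpv6, also epidermal channels, were detected in every group and were not called. Trpv3, which responds to warmth, had 12.6 and 9.59 CPM in paw Merkel libraries against 14.6 and 19.0 CPM in paw IFE libraries, and 11.9 and 42.8 CPM in back Merkel libraries against 6.89 and 1.79 CPM in back IFE libraries. Both back Merkel libraries lay above both back IFE libraries in CPM. On the deposited FPKM scale they overlapped, with 1.74 and 4.59 FPKM in back Merkel libraries against 2.43 and 0.115 FPKM in back IFE libraries. The back log2 fold change of 2.66 (SE 0.96, adjusted p = 0.0845) did not pass. In paw skin it was -0.60 (adjusted p = 0.764). Trpv6, a calcium-selective uptake channel, had 25.1 and 1.20 CPM in paw Merkel libraries against 20.8 and 20.1 CPM in paw IFE libraries, and 12.1 and 3.91 CPM in back Merkel libraries against 35.3 and 16.5 CPM in back IFE libraries. Without paw Merkel library 1, Trpv6 was called lower in Merkel cells in paw skin (adjusted p = 0.0398, against 0.807 with all libraries) and over both sites (0.0099, against 0.323). Trpv2 was uneven: it had 0.767 and 38 CPM in paw Merkel libraries against 0 and 2.96 CPM in paw IFE libraries, and 0 CPM in both back Merkel libraries against 6.95 and 1.22 CPM in back IFE libraries (adjusted p = 0.106 in back skin). Trpv2 was called lower in back Merkel cells without paw IFE library 1 (0.028) or paw IFE library 2 (0.0344). Trpv1 and Trpv3 are neighbours on chromosome 11, 6145 bases apart, as are Trpv5 and Trpv6 on chromosome 6, 15767 bases apart, and 1 gene of each pair was detected.

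The melastatin channel Trpm7, which carries a kinase domain and admits magnesium, zinc and calcium, was the most abundant TRP channel in all 8 libraries on the FPKM scale. It had 200 and 322 CPM in paw Merkel libraries against 277 and 247 CPM in paw IFE libraries, and 233 and 317 CPM in back Merkel libraries against 269 and 240 CPM in back IFE libraries. All groups overlapped. The averaged log2 fold change was 0.06 (SE 0.24, adjusted p = 0.897). Trpm4, a sodium-permeable channel opened by calcium, had 35.2 and 37.2 CPM in paw Merkel libraries against 99.0 and 32.1 CPM in paw IFE libraries, and 6.31 and 14.2 CPM in back Merkel libraries against 30.7 and 24 CPM in back IFE libraries. Back Merkel libraries had the lowest Trpm4 levels, but the averaged log2 fold change of -1.14 (SE 0.46, adjusted p = 0.0971) did not pass.

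Trpm1 and Trpm2 varied widely between replicates, and their Merkel and IFE libraries overlapped at both sites. Trpm1, known from melanocytes and retinal bipolar cells, had 0.719 and 4.79 CPM in paw Merkel libraries against 1.34 and 6.51 CPM in paw IFE libraries, and 5.17 and 27.8 CPM in back Merkel libraries against 77.2 and 2.37 CPM in back IFE libraries. Trpm2, an oxidative stress channel known from immune cells, had 3.93 and 7.28 CPM in paw Merkel libraries against 2.69 and 6.22 CPM in paw IFE libraries, and 0.152 and 21.7 CPM in back Merkel libraries against 36.8 and 12.7 CPM in back IFE libraries. Without back Merkel library 2, Trpm2 was called lower in Merkel cells in back skin (adjusted p = 0.032, against 0.626 with all libraries) and over both sites (0.0322, against 0.801). The highest value of both genes was in back IFE library 1, the library with the highest immune marker sum. In back IFE cells 10 of 13 immune markers reached 1 CPM in both libraries and none was at 0 in both, whereas in back Merkel cells 0 of 13 did so and Cd207, Lyz2, Cd52, Fcer1g and Tyrobp were at 0 in both. Back Merkel library 2, where P2rx7, Trpm1 and Trpm2 were higher than in library 1, had an immune sum of 6.84 CPM, against 2.97 CPM in library 1. Itgam alone gave 5.96 CPM of the sum in library 2 and 0.38 CPM in library 1, so the order of the sums rests on that gene. Itgam shares 68.7% of its exonic bases with Gm49368 on the same strand. The 8 melanocyte markers summed to 127 to 215 CPM in Merkel libraries and 8.56 to 16.8 CPM in IFE libraries. In Merkel libraries nearly all of that sum was Kit and Mitf. In back IFE libraries 1 and 2, Mitf had 11.2 and 5.76 CPM, Pmel 2.55 and 4.47 CPM and Dct 2.55 and 1.3 CPM, while Mlana, Tyrp1 and Sox10 were at 0 in both. The part of immune cells or melanocytes in these values was not tested further.

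**Figure D5:**
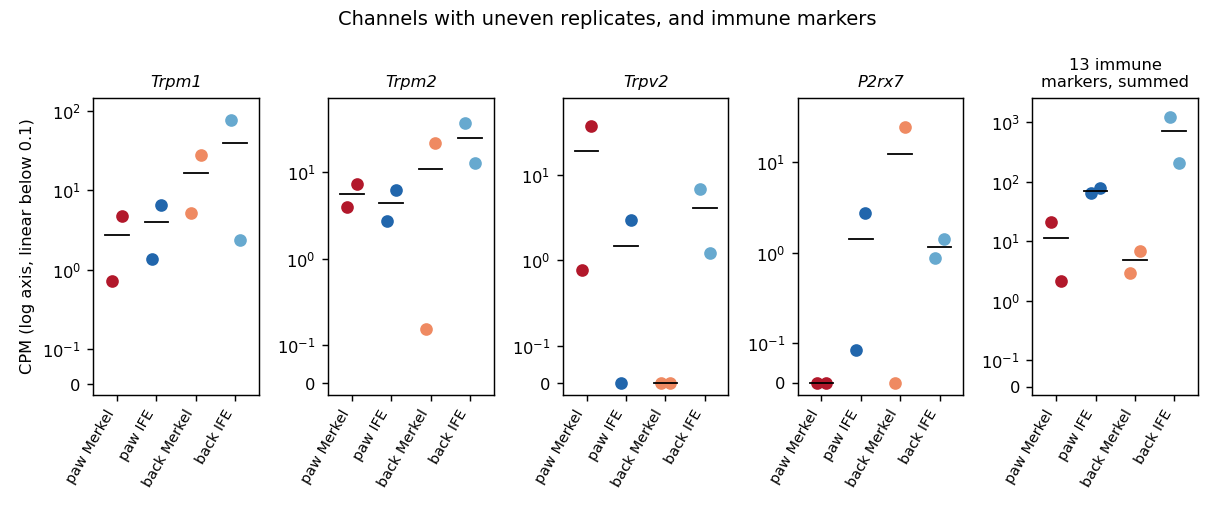
CPM of Trpm1, Trpm2, Trpv2 and P2rx7 and the summed CPM of 13 immune markers, by group (log axis, linear below 0.1). Each point is a library and each black line the mean of 2 libraries. Trpm1 and Trpm2 are highest in the same back IFE library as the immune sum, and P2rx7 and Trpv2 are high in 1 Merkel library each.

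The canonical channels were sparse. Trpc1, a widely expressed subunit, had 16.1 and 5.44 CPM in paw Merkel libraries against 4.40 and 0.395 CPM in paw IFE libraries, and 9.58 and 17.8 CPM in back Merkel libraries against 5.05 and 0.534 CPM in back IFE libraries. Every Merkel library lay above every IFE library, by a narrow margin, and the averaged log2 fold change of 2.23 (SE 1.01, adjusted p = 0.135) did not pass. Trpc4, a receptor-activated channel, had 1.25 and 3.04 CPM in paw Merkel libraries, against 0 CPM in both paw IFE libraries (at least 32.0-fold higher, adjusted p = 0.179). In back skin Trpc4 had 0 and 0.293 CPM in Merkel libraries, against 0 and 0.0763 CPM in IFE libraries. Trpc2, the pheromone-sensing channel of the mouse vomeronasal organ, had 0 counts in all libraries but a deposited FPKM of 0.579 to 3.32. All of its 2874 exonic bases (100%) are shared with Xndc1 and Xntrpc on the same strand. Xndc1 had 325 to 1223 counts per library and Xntrpc had 0, so the authors' counts and FPKM place reads of this locus differently and the level of Trpc2 is uncertain.

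Merkel cells of paw and back skin were compared to ask whether the channels differ with body site. None of the 24 tested channels was called between paw Merkel and back Merkel cells, where 0.178% of all genes were called higher and 0.0066% lower (0.185% in all). At an unadjusted p under 0.05 there were 3 of 24 channels and 1550 of 15151 genes. DESeq2 called 2 of 24 channels and 625 of 14030 genes, and limma 0 of 24 channels and 19 of 15151 genes. Trpm4 was one of the 3, with 35.2 and 37.2 CPM in paw Merkel libraries against 6.31 and 14.2 CPM in back Merkel libraries (log2 fold change 1.82, SE 0.66, adjusted p = 0.378). The other two were Trpv2 (adjusted p = 0.306) and P2rx7 (adjusted p = 0.344), whose reads lay mostly in 1 library. The level of Hcn4 was 0.192 and 0 CPM in paw Merkel libraries against 6.31 and 4.49 CPM in back Merkel libraries, with an adjusted p of 0.509. Between paw IFE and back IFE cells 0 of 24 channels and 0.0% of all genes were called. An unadjusted p under 0.05 was found for 4 of 24 channels and 643 of 15151 genes. DESeq2 called 1 of 28 channels and 87 of 15128 genes, and limma called 0 of either. Hcn3 was the channel called by DESeq2 (adjusted p = 0.0364), with 1.63 and 1.97 CPM in paw IFE libraries against 0.0543 and 0 CPM in back IFE libraries. Both back IFE libraries were low in Hcn3, although library 2 resembled paw IFE in its Hox genes.

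Whether the contrast of Merkel with IFE cells differed between paw and back skin was tested as an interaction. No channel and 0.0% of all genes were called by edgeR. At an unadjusted p under 0.05 there were 8 of 24 channels and 1365 of 15151 genes. DESeq2 called 4 of 24 channels and 298 of 14396 genes, and limma called 0 of either. Hcn3 had the smallest adjusted p by edgeR, 0.258, and was called by DESeq2 (adjusted p = 0.00282), with a smaller difference in paw skin than in back skin. The other DESeq2 calls were Asic4 (0.0439), Trpv2 (0.0217) and P2rx7 (1.96e-08). Asic1 and Asic2, called in back skin but not in paw skin, did not pass the test of the difference between the sites by edgeR or DESeq2, which does not show that the sites are alike.

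Genes that work with these channels were examined as 7 lists of 42 genes, of which 34 were tested: mucolipins and polycystins, the epithelial sodium channel, store-operated calcium entry, phospholipases C, channel partners, P2Y receptors, and ATP release with ectonucleotidases. Over both sites 4 were called higher in Merkel cells and 4 lower, or 11.8% each, near the 12.5% and 11.3% of all genes, and the median log2 fold change of the 34 was 0.08, against -0.09 for all genes. In paw skin 1 was higher and 0 lower, or 2.9% and 0.0%, against 4.28% and 1.93% of all genes. In back skin 2 were higher and 1 lower, or 5.9% and 2.9%, against 7.99% and 7.45% of all genes. The gene called at both sites was Entpd3, an enzyme on the cell surface that breaks down ATP and ADP. It had 37.7 and 30.4 CPM in paw Merkel libraries against 1.67 and 0.938 CPM in paw IFE libraries, and 19.5 and 26.2 CPM in back Merkel libraries against 0.597 and 0.878 CPM in back IFE libraries. The groups were far apart, with log2 fold changes of 4.70 in paw skin (SE 0.88, adjusted p = 0.00874) and 4.94 in back skin (SE 0.89, adjusted p = 0.0037). In paw skin Entpd3 did not pass without paw IFE library 1 (adjusted p = 0.0523) or library 2 (0.105).

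Pex5l encodes TRIP8b, a partner that sets the trafficking and gating of HCN channels. It had 0.719 and 0 CPM in paw Merkel libraries against 0 CPM in both paw IFE libraries, and 9.81 and 7.82 CPM in back Merkel libraries against 0 CPM in both back IFE libraries (adjusted p = 0.0465 in back skin and 0.017 over both sites). Both back Merkel libraries held its reads. Its back call was lost without either back Merkel library (0.128 and 0.121) or either back IFE library (0.147 and 0.154), and the averaged call without back Merkel library 1 (0.0516). Without paw Merkel library 1 the averaged contrast of Pex5l could not be fitted. Its level was highest in the group where Hcn2, Hcn3 and Hcn4 were highest. Pkd2, a polycystin channel of the wider TRP family, had 47.6 and 182 CPM in paw Merkel libraries against 42.1 and 35.6 CPM in paw IFE libraries, and 65.6 and 115 CPM in back Merkel libraries against 19.2 and 30.1 CPM in back IFE libraries (averaged log2 fold change 1.72, SE 0.43, adjusted p = 0.0141). Pirt, a regulator of Trpv1 and Trpm8 in sensory neurons, was called over both sites (adjusted p = 0.0344) but rested mostly on the 50.9 CPM of paw Merkel library 1, and the other 3 Merkel libraries had 0 to 5.40 CPM. Without that library its adjusted p was 0.213 and without back IFE library 1 it was 0.0611, while without back Merkel library 1 it could not be fitted.

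The 4 called lower in Merkel cells were Plcb2, Plcb3, Stom and P2ry13. Plcb3, a phospholipase downstream of G protein-coupled receptors, had 90.6 and 29.5 CPM in paw Merkel libraries against 198 and 174 CPM in paw IFE libraries, and 53.9 and 38.7 CPM in back Merkel libraries against 161 and 113 CPM in back IFE libraries (averaged log2 fold change -1.60, SE 0.36, adjusted p = 0.00775). Stom, a membrane protein that modulates ASICs, had 2.88 and 0 CPM in paw Merkel libraries against 40.3 and 40.2 CPM in paw IFE libraries, and 1.22 and 8.21 CPM in back Merkel libraries against 72.1 and 32.3 CPM in back IFE libraries (averaged log2 fold change -4.11, SE 0.96, adjusted p = 0.0101). Stom was thus low in the cells where Asic1 and Asic2 were high. Plcb2 was at 0 in all 4 Merkel libraries and had 0.244 and 9.38 CPM in paw IFE libraries and 25.6 and 5.23 CPM in back IFE libraries (adjusted p = 0.00619 over both sites). In back skin alone it was called (adjusted p = 0.0342), but not without back IFE library 1 (0.119) or either back Merkel library (0.108 and 0.118). P2ry13 reached 38.2 CPM in back IFE library 1 and at most 2.71 CPM elsewhere (adjusted p = 0.0465 over both sites, and 0.286 without that library; the call was also lost without back Merkel library 2, at 0.0951, or either paw Merkel library, at 0.0752 and 0.0704, and could not be fitted without paw IFE library 2). Plcb2 and P2ry13, both known from blood cells, were highest in the library with the highest immune marker sum, and the part of immune cells was not tested.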

How the data were processed

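RNA was sequenced from 8 libraries in 4 groups of 2, and all were used. The authors deposited, per library, whole-number gene counts (24538 genes) and FPKM values (24453 genes), the FPKM being scaled by them to transcript length and depth. The submitters' processing notes name the mm10 build and the tools DESeq2 1.6.3, Subread 1.4.6 with featureCounts, TopHat2 2.0.13 and Cufflinks 2.2.1. The gene annotation and strand setting are not given in the sources used here. Per the labels' protocols, RNA was amplified before library construction, so intervals and floors of 3 counts cover counting error only.

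Counts were fitted with edgeR 4.0.16 in R 4.3.3 (filterByExpr by group, TMM, 1 mean per group over 8 libraries, 4 residual degrees of freedom, quasi-likelihood F test). Each SE given here is the absolute log2 fold change divided by the square root of its F value, not an SE taken from the fit. The filter left 15151 genes, over which p-values were adjusted by Benjamini-Hochberg, with a threshold of 0.05. The 6 comparisons were Merkel against IFE cells in paw, in back and averaged over both, paw against back within each cell type, and the interaction. Alternatives were RLE scaling, DESeq2 1.42.0, limma 3.58.1 (limma-trend, prior count 2), no filter, FPKM with a pseudocount of 0.1 or 1, a replicate block and leaving out each library. The test was checked on simulated counts with changes placed only in well-counted genes. That check does not cover sparse channels such as Hcn2. Gene positions are from GENCODE vM21 (GRCm38), where all 38 channels were found, and promoter windows from RefSeq. Full statistics are given for channels called or detected and counts for the others (some are not reported here), and related genes are named by smallest adjusted p, up to 4 per direction. The channels, gene lists and markers were chosen with earlier results of these data known. Replicate numbers did not pair the libraries: deviations of same-numbered libraries correlated at -0.0427 to 0.0845.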

Additional observations from a re-analysis of the deposited data

How the results depend on the processing

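The number of channels called depended on the test. In paw skin the main fit called 1 of 24 channels and 941 of 15151 genes. There DESeq2 called 5 of 24 channels and 2364 of 14396 genes. Without a filter edgeR called 5 of 35 channels and 1920 of 19152 genes. Limma-trend called 3 of 24 channels and 1096 of 15151 genes. Asic2 (higher) and Trpv4 (lower), not called there by the main fit, were called by both DESeq2 and limma-trend. On FPKM with a pseudocount of 1, limma called 2 of 19 channels and 821 of 14119 genes. In back skin the main fit called 4 of 24 channels and 2338 of 15151 genes. There DESeq2 called 11 of 25 channels and 4215 of 14762 genes. Without a filter edgeR called 9 of 35 channels and 3320 of 19152 genes. Limma-trend called 8 of 24 channels and 3195 of 15151 genes. Asic3, Asic4, Hcn2 and Hcn4, not called in back skin by the main fit, were called higher by both DESeq2 and limma-trend. On FPKM limma called 8 of 19 channels with either pseudocount, and 2889 (0.1) or 2975 (1) of 14119 genes. Over both sites DESeq2 called 10 of 28 channels and 5029 of 15128 genes, against 6 of 24 channels and 3617 of 15151 genes. Between paw and back Merkel cells DESeq2 called 2 of 24 channels and 625 of 14030 genes. There edgeR without a filter called 2 of 35 channels and 452 of 19152 genes. Between paw and back IFE cells they called 1 channel each, with 87 of 15128 and 120 of 19152 genes. In the interaction they called 4 channels each, with 298 of 14396 and 305 of 19152 genes. The main fit called 0 channels in all 3. Leaving out 1 library gave 1 to 4 in paw skin, 2 to 7 in back skin, 4 to 8 over both sites and 0 in the other comparisons. With the replicate block the counts in paw skin, in back skin and over both sites were 1, 5 and 6 of 24 channels. The counts of all genes were 1144, 2520 and 3646 of 15151. The added call in back skin was Trpv2, lower, and that check uses only 2 numbers. Over 371 alternatives for results of Asic1 to Asic4, Hcn2 to Hcn4, P2rx6, Trpm4, Trpv3 and Trpv4, 304 kept their side of the threshold, 15 lost a call, 52 gained one and 0 changed direction. These results were chosen for a main adjusted p under 0.1, or as Merkel against IFE results of called channels. That choice left little room for a change of direction. Results of the same channels outside that choice could change direction. With 1 library left out, the paw log2 fold change of Merkel over IFE cells ran from -3.10 to 7.34 for Asic4. It ran from -5.43 to 3.98 for Hcn4, whereas that of Trpv3 stayed negative, at -0.834 to -0.401. The number of detected channels stayed within 1.5 times under 5 other cut-offs. The causes were not tested. With 2 libraries per group, and replicates of these channels differing by a median of 0.52 to 1.10 on the log2 scale, small changes could not be resolved.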
